A study of Rattus norvegicus with 4 samples.

Results

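The 7 small heat shock protein genes Hspb1, Hspb2, Hspb3, Hspb6, Hspb7, Hspb8 and Cryab and the co-chaperone gene Bag3 were followed in cultured heart muscle cells given a hypertrophic stimulus. They were taken by gene name from the authors' deposited table and joined by identifier to the deposited counts, which gave 8 genes of 32883. Each name had a single identifier, and all 8 passed the filter on low counts that left 15257 genes to test. The cells were ventricular cardiomyocytes of Sprague-Dawley rats at postnatal day 2, grown in medium with fetal bovine serum. A short plating step was used to reduce non-cardiomyocytes, whose markers were still measured (below). In 2 libraries the cells had received phenylephrine (PE), an alpha-adrenergic agonist that makes cardiomyocytes grow, at 20 µM for 24 h, and in the other 2 libraries they were untreated. The labels do not say whether replicates came from separate isolations, and the p-values therefore cover only variation among these 4 libraries, which may be technical.

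Small heat shock proteins are chaperones that need no ATP. They share an alpha-crystallin domain, assemble into oligomers, and hold partly unfolded proteins until ATP-driven chaperones refold them or pass them on for degradation. Heart muscle is rich in them, and several bind the actin, desmin, titin or filamin C of the contractile apparatus. BAG3 joins HSPB8 to the ATP-driven chaperone HSPA8 and directs damaged filamin to autophagosomes, a route called chaperone-assisted selective autophagy.

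Total counts per library ran from 45637881 to 56948370, and mitochondrial-genome transcripts took 4.61% to 6.19% of counts in 3 libraries and 11.7% in control replicate 2. The summed level of 6 cardiomyocyte markers was 10645 and 11681 CPM (counts per 1000000 of the TMM-adjusted library size) in the controls and 10394 and 11409 CPM with PE, so these ranges overlapped. Within that list Myl2, a ventricular myosin light chain, rose (log2 fold change 0.71 ± 0.18, edgeR adjusted p = 0.0217), while Actn2 at 0.60 ± 0.18 and Myh6 at -0.54 ± 0.22 did not pass (edgeR adjusted p = 0.0506 and 0.132). Summed levels of fibroblast, endothelial, macrophage and mesothelial markers were lower with PE. The 6 fibroblast markers summed to 15853 and 12430 CPM in the controls and 7928 and 8436 CPM with PE, and 2 of them, Col3a1 and Pdgfra, fell. Most of that sum came from Col1a1 and Col3a1. Dcn and Tcf21, on the same list, were at log2 fold changes of 0.50 ± 0.27 and 0.04 ± 0.16 and did not pass. Col1a2 had at most 5 counts in any library although Col1a1 was abundant. The 3 measured endothelial markers summed to 187 and 186 CPM against 103 and 106 CPM, and all 3 fell. Summed levels of 4 macrophage markers (126 and 128 CPM against 79.9 and 85.6 CPM) and of 3 mesothelial markers (146 and 113 CPM against 62.2 and 72.2 CPM) were also lower, with 2 of each list called. Over all tested genes edgeR called 8.3% lower at an adjusted p under 0.05. The 4 markers of smooth muscle and pericytes were at 1015 and 725 CPM in the controls and 649 and 759 CPM with PE, which overlapped. Of the skeletal muscle markers, Myod1, Myf5 and Pax7 had 0 counts in every library and Myog at most 5. The muscle creatine kinase gene Ckm, on the same list and also expressed in heart, fell. In such bulk samples fewer cells of a type and less RNA per cell cannot be told apart, and the part of these shifts in the results on the 8 genes was not tested.

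The promoter sequences are shown first because members with the same short sequence had log2 fold changes of opposite sign. The negative value, that of Bag3, did not pass (edgeR adjusted p = 0.0883). RefSeq windows (build GRCr8, not the Rnor_6.0 build named for the counts) matched 6 of the 8 genes by symbol. The heat shock element, to which heat shock factors bind, is built from inverted GAA units. It was searched on both strands as a single pair of such units, GAANNTTC or TTCNNGAA, and no longer run of units was required. The search covered 250 bases before to 50 bases after each start site. The MEF2 box, the element of the MEF2 muscle transcription factors, was searched by its standard degenerate form. Below, the 250 bases before the start are given 5′ to 3′ on the gene's strand. Matches to the searched heat shock forms or MEF2 boxes are in capitals. Hspb8 and Bag3 are shown as a pair of genes for interacting proteins with the same match, and Hspb3 and Hspb7 as muscle members without one of either form.
Hspb8, chr12:45837058-45837307 (+): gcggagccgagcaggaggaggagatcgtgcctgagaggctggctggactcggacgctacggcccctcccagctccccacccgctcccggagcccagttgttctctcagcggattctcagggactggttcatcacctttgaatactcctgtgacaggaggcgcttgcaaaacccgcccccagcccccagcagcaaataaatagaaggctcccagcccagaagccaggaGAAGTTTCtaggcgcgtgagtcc
Bag3, chr1:192533210-192533459 (+): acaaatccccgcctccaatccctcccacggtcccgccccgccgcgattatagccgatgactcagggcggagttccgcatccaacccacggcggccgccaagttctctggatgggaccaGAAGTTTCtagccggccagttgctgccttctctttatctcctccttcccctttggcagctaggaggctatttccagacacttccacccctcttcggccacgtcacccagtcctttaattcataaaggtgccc
Hspb3, chr2:47029166-47029415 (-): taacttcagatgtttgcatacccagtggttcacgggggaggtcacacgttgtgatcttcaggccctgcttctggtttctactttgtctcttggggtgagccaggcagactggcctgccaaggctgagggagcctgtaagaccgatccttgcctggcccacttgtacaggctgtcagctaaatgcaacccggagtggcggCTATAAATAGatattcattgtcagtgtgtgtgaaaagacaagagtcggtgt
Hspb7, chr5:159010509-159010758 (+): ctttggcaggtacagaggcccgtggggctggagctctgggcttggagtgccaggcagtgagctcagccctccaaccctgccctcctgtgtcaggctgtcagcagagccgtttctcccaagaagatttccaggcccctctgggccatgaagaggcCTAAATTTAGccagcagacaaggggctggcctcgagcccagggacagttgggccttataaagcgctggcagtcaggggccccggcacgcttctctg

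The same 8 letters, GAAGTTTC, stood at positions -23 to -16 of Hspb8 and -132 to -125 of Bag3, counted back from the start site. They also stood at -129 to -122 of Hspb1 and -149 to -142 of Hspb6. Hspb1 had a further match, GAACCTTC, at -109 to -102, and Hspb6 had TTCTAGAA at -239 to -232. So 4 of the 6 windows held a match to either heat shock form, against 15.4% of all 27457 RefSeq promoter windows of 300 bases. The other 2, Hspb3 and Hspb7, each held a MEF2 box, at -51 to -42 and -96 to -87, against 3.37% of all windows. The box of Hspb3 overlapped a TATA box (TATAAA) at -50 to -45. These are matches of letters and not evidence of binding.

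PE raised 3 of the 8 genes, Hspb3, Hspb7 and Hspb8, in edgeR's quasi-likelihood test at a Benjamini-Hochberg adjusted p under 0.05 over all tested genes. Of all tested genes 15.7% were called, 7.39% as higher and 8.3% as lower. Hspb3 rose 4.24-fold, while Hspb7 and Hspb8 rose 1.54-fold and 1.45-fold. None of the 8 was called lower by edgeR or by DESeq2, and 1, Bag3, was lower at an unadjusted p under 0.05. Levels in PE and control libraries did not overlap for 6 members, 5 of them higher with PE and 1, Bag3, lower. Of all tested genes 28.5% were higher and 28.1% lower without overlap. The median log2 fold change of the 8 was 0.54, against -0.01 for all tested genes.

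**Figure D1:**
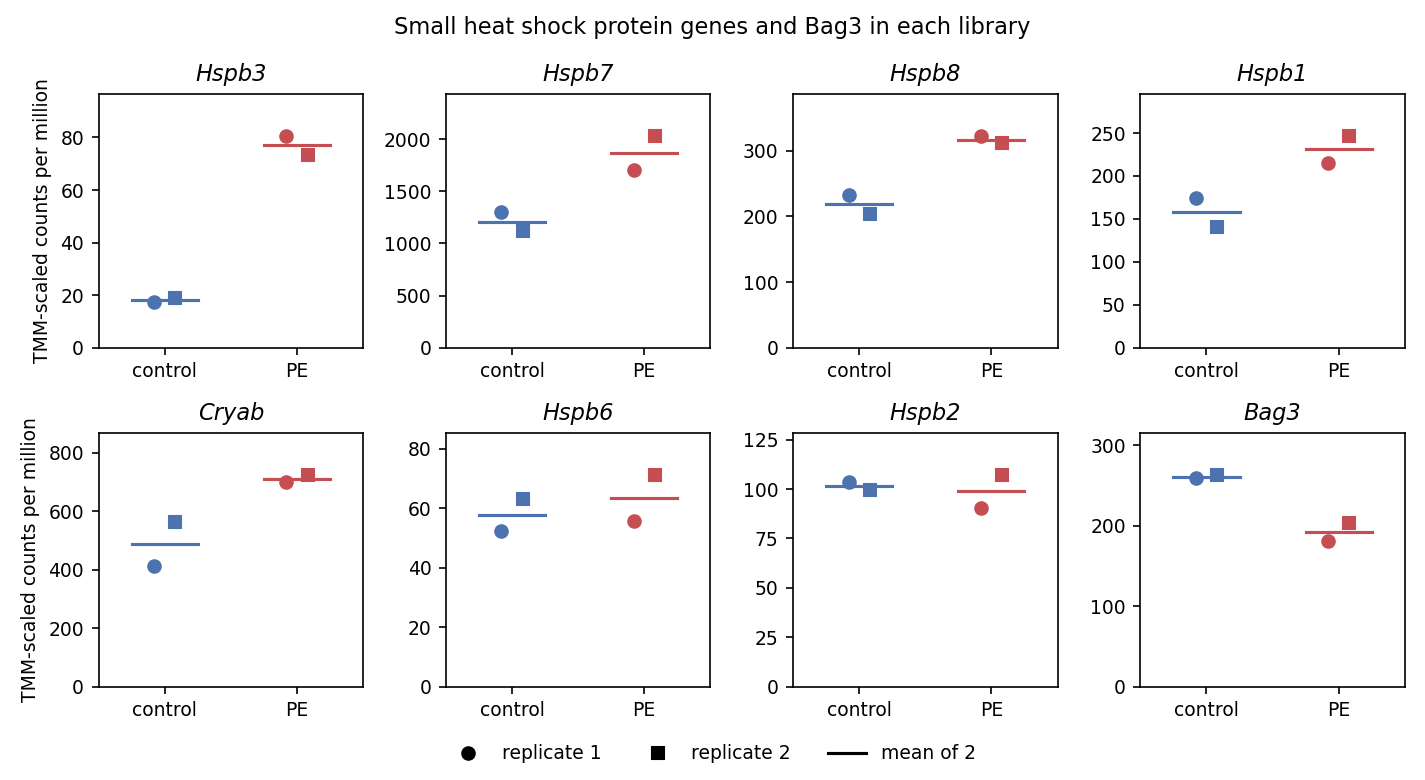
Level of each of the 8 genes in each library, in CPM over TMM-adjusted library size (y axis, from 0, a scale per panel), for control and PE cells (x axis). Points are libraries and bars are means of 2. Hspb3 stood at 17.5 and 18.8 CPM in the controls and 80.6 and 73.4 CPM with PE, and Bag3 is the panel with both PE libraries under both controls.

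Hspb3 (ENSRNOG00000010992) encodes a small heat shock protein of muscle that forms a complex with HSPB2. It was at 17.5 and 18.8 CPM in control replicates 1 and 2 and at 80.6 and 73.4 CPM in PE replicates 1 and 2. The libraries of a group lay within 1.1-fold of each other, and both PE libraries were far above both controls. The means were 18.2 ± 0.914 CPM and 77.0 ± 5.08 CPM (SD, n = 2), and the log2 fold change was 2.08 ± 0.17 (SE; 95% interval 1.71 to 2.46; edgeR adjusted p = 4.43e-05). It was the 193rd largest rise of 15257 tested genes. Its partner Hspb2 (ENSRNOG00000010402) was at 104 and 99.5 CPM in the controls and 90.5 and 107 CPM with PE. These levels overlapped, with both control values inside the range of the PE values. Its log2 fold change of -0.04 ± 0.16 did not pass (95% interval -0.40 to 0.32; edgeR adjusted p = 0.906), and was 0.082 without PE replicate 1. Within a library there were 0.169 and 0.189 Hspb3 counts per Hspb2 count in the controls and 0.891 and 0.685 with PE. The mean ratio was 4.4 times as high with PE. Such a ratio does not depend on how libraries are scaled. It was not corrected for transcript length, so only its difference between libraries can be read.

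Hspb7 (ENSRNOG00000029079) encodes a heart-enriched member that binds filamin C. It was at 1300 and 1119 CPM in control replicates 1 and 2 and at 1704 and 2032 CPM in the PE libraries. Both PE libraries were above both controls, and replicates differed by 1.16-fold and 1.19-fold. The log2 fold change was 0.63 ± 0.18 (95% interval 0.22 to 1.03; edgeR adjusted p = 0.0428). The call was lost in 4 of 11 alternatives, among them library sizes alone (0.58, adjusted p = 0.0645) and the fits without PE replicate 1 or 2 (0.75 and 0.50, adjusted p = 0.2 and 0.519). Over all 11 alternatives its adjusted p ran from 3.09e-07 to 0.519.

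Hspb8 (ENSRNOG00000022392) encodes the small heat shock protein that BAG3 binds. It was at 233 and 203 CPM in the controls and 323 and 311 CPM with PE, so the PE libraries were close together and above both controls. Its log2 fold change was 0.54 ± 0.16 (95% interval 0.18 to 0.90; edgeR adjusted p = 0.0485), next to the threshold. The call was lost in 5 of the alternatives, among them library sizes alone (0.49, adjusted p = 0.0779), upper-quartile factors (0.51, adjusted p = 0.0559) and the fits without PE replicate 1 or 2 (0.52 and 0.57, adjusted p = 0.533 and 0.428). Over the alternatives its adjusted p ran from 0.00012 to 0.533.

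Bag3 (ENSRNOG00000020298), which encodes the nucleotide exchange factor that couples HSPB8 to HSPA8, was at 259 and 263 CPM in the controls and 181 and 203 CPM with PE. Both PE libraries were below both controls, which differed from each other by only 1.02-fold. The log2 fold change of -0.45 ± 0.16 did not pass (95% interval -0.80 to -0.09; edgeR adjusted p = 0.0883; unadjusted p = 0.0184). It passed without control replicate 1 (-0.45, adjusted p = 0.00827) and without control replicate 2 (-0.43, adjusted p = 0.0109), in fits that took the spread from the PE libraries alone. Its adjusted p ran from 0.00827 to 0.772 over the alternatives.

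The partner genes Hspb8 and Bag3 thus had log2 fold changes of opposite sign. There were 0.900 and 0.774 Hspb8 counts per Bag3 count in the controls and 1.79 and 1.54 with PE, and the mean ratio was 1.98 times as high with PE. The ratios of Hspb1, Hspb7 and Cryab to Bag3 were 1.99, 2.1 and 1.99 times as high. In each of the 4 ratios both PE libraries were above both controls. This follows from the levels, since each numerator was higher and Bag3 lower without overlap, and adds no separate result. They all share Bag3 as the denominator. The ratios are given as values without a test, since with 2 libraries against 2 an exact two-sided permutation test cannot go below p = 0.333.

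**Figure D2:**
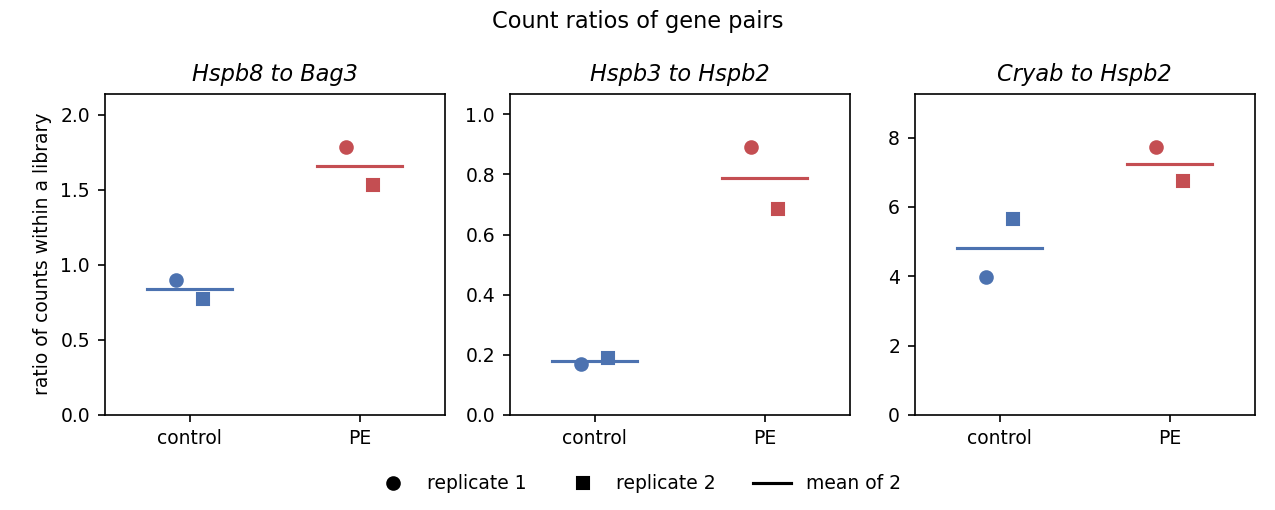
Counts of one gene divided by counts of another in the same library (y axis, from 0, no length correction) for 3 gene pairs, in control and PE cells (x axis). Points are libraries and bars are means of 2. The Hspb8 to Bag3 ratio was 0.900 and 0.774 in the controls and 1.79 and 1.54 with PE, and in all 3 panels both PE points lie above both control points.

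Hspb1 (ENSRNOG00000023546) encodes a widely expressed member that protects actin filaments and is phosphorylated by the kinase MAPKAPK2. It was at 174 and 141 CPM in the controls and 215 and 247 CPM with PE, with no overlap. Its log2 fold change of 0.55 ± 0.17 did not pass in edgeR (95% interval 0.16 to 0.94; adjusted p = 0.0585). DESeq2, which called 16% of the genes it gave an adjusted p, called Hspb1 (adjusted p = 0.0289). So did edgeR when no filter was applied (adjusted p = 0.0201). Leaving out control replicate 1 (0.72) or control replicate 2 (0.41) also gave a call, but these fits took the spread from the PE libraries alone. The adjusted p over the alternatives ran from 1.8e-05 to 0.584.

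Cryab (ENSRNOG00000010524) encodes alpha-B crystallin, a chaperone of desmin and titin. It was at 412 and 563 CPM in control replicates 1 and 2 and at 699 and 725 CPM with PE. The controls differed by 1.37-fold, the widest gap between replicates of a group among the 8 genes, but neither reached the PE libraries. The log2 fold change of 0.55 ± 0.19 did not pass (95% interval 0.13 to 0.97; edgeR adjusted p = 0.081). DESeq2 called it (adjusted p = 0.0399), as did edgeR when no filter was applied (adjusted p = 0.0172). It also passed without control replicate 1 (0.34) and without control replicate 2 (0.79). Those fits drop the gap between the controls and took the spread from the PE libraries alone. Its adjusted p ran from 4.2e-07 to 0.491 over the alternatives. Cryab and Hspb2 overlap in the RefSeq annotation of GRCr8, as do Hspb6 and Lin37, and the strand setting of the counting is not given in the sources used here, so reads of these genes may be shared or lost. The Cryab to Hspb2 count ratio was 3.97 and 5.66 in the controls and 7.73 and 6.76 with PE, with means 1.5 times as high.

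Hspb6 (ENSRNOG00000020922) encodes a member that protein kinase A phosphorylates in heart muscle. It was at 52.5 and 63.0 CPM in the controls and 55.6 and 71.3 CPM with PE. Control replicate 2 lay between the PE libraries. Its log2 fold change of 0.13 ± 0.19 did not pass (95% interval -0.28 to 0.55; edgeR adjusted p = 0.69), and was -0.048 without PE replicate 2. For every other member, Hspb2 and Hspb6 among them, the upper end of the interval was below the 1.71 at which that of Hspb3 began.

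**Figure D3:**
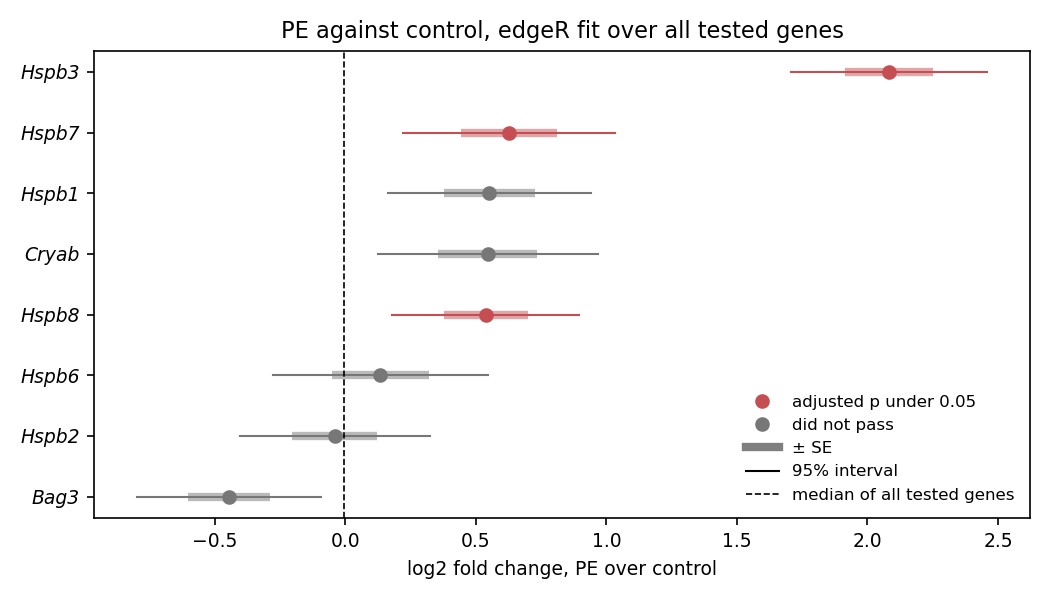
Log2 fold change of PE over control for the 8 genes (x axis), with thick bars for ± SE and thin bars for the 95% interval from edgeR, and a dashed line at the median of all tested genes. Hspb3 stands alone at 2.08, Hspb7, Hspb1, Cryab and Hspb8 lie between 0.54 and 0.63, Hspb6 and Hspb2 are near 0, and Bag3 is at -0.45.

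Hspb7, Hspb1, Cryab and Hspb8 had nearly the same log2 fold change, 0.63, 0.55, 0.55 and 0.54, and their intervals overlapped almost entirely although only Hspb7 and Hspb8 were called by edgeR. In the authors' deposited table, an adjusted p under 0.05 was given for 5 of the 8 genes, against 16.8% of its genes with an adjusted p. They were Hspb3 (4.91e-26), Hspb7 (0.00694), Hspb8 (0.018), Hspb1 (0.0278) and Cryab (0.0384), and Bag3 in the authors' deposited table was at an adjusted p of 0.0681.

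Together the 7 small heat shock protein genes took 2293 and 2208 CPM in the controls and 3167 and 3566 CPM with PE, so the sum was 1.5 times as high on average. Hspb7 gave 50.7% to 57% of these counts in every library, and Cryab 18% to 25.5%. These are shares of counts, which grow with transcript length, and not of molecules. The share of Hspb7 overlapped between groups, as did those of Hspb1, Hspb8 and Cryab. The share of Hspb3 was 0.765% and 0.853% in the controls and 2.55% and 2.06% with PE. Hspb2 made up 4.52% and 4.51% of these counts in the controls and 2.86% and 3.01% with PE. Hspb6 made up 2.29% and 2.86% in the controls and 1.76% and 2% with PE. In these last 3 shares the groups did not overlap, and a share also moves when the other genes of the sum change.

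Other members of the small heat shock protein family had almost no counts. Cryaa, the lens alpha-A crystallin, had 2 and 1 counts in the controls and 0 in both PE libraries. Hspb9 and Odf1, known from testis, had 0 counts in all 4 libraries, which allows 3 counts, or 0.0535 to 0.0658 CPM, as a limit of counting error only.

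The genes around this chaperone group gave a mixed picture. The counts of calls below are of short lists, and over all tested genes edgeR called 7.39% higher and 8.3% lower. Of the 4 tested genes of other BAG proteins, 1 rose and 3 did not pass, with a median log2 fold change of 0.21. It was Bag2, whose product inhibits the ubiquitin ligase STUB1. It was at 37.3 and 31.3 CPM in the controls and 54.2 and 53.7 CPM with PE, a log2 fold change of 0.65 ± 0.17 (edgeR adjusted p = 0.0252). Bag5 had 0 counts in every library.

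Of 11 partners of chaperone-assisted selective autophagy, 2 rose, 1 fell and 8 did not pass, with a median of -0.02. Synpo2 encodes an actin-binding scaffold that works with BAG3 at the Z-disc. It was at 296 and 289 CPM in the controls and 485 and 539 CPM with PE, a log2 fold change of 0.81 ± 0.16 (edgeR adjusted p = 0.007). Hspa8, the constitutive chaperone that BAG3 binds, was at 543 and 504 CPM in the controls and 907 and 807 CPM with PE, a log2 fold change of 0.71 ± 0.17 (edgeR adjusted p = 0.0167). Map1lc3b, which encodes the autophagosome protein LC3B, fell from 197 and 229 CPM to 152 and 140 CPM, a log2 fold change of -0.55 ± 0.16 (edgeR adjusted p = 0.0466). Flnc, filamin C, named after its values were seen because HSPB7 and BAG3 bind its product, was at 1052 and 614 CPM in the controls and 1216 and 1431 CPM with PE. Its log2 fold change of 0.67 ± 0.24 did not pass (edgeR adjusted p = 0.0958). The calls of Bag2, Synpo2, Hspa8 and Map1lc3b were each lost without PE replicate 1 (adjusted p = 0.313, 0.0939, 0.368 and 0.438) and without PE replicate 2 (adjusted p = 0.278, 0.208, 0.151 and 0.572).

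Among 4 measured genes of intermediate filament and nuclear lamina proteins, listed as clients, 1 rose and 3 did not pass (median 0.17). Des, desmin, the muscle intermediate filament that alpha-B crystallin protects, was at 2078 and 1307 CPM in the controls and 3856 and 4508 CPM with PE. Its log2 fold change was 1.30 ± 0.23 (edgeR adjusted p = 0.00404). Of 9 genes for kinases that act on small heat shock proteins directly or through other kinases, none passed in edgeR or DESeq2. None had an unadjusted p under 0.05 in edgeR, and the median log2 fold change was -0.03. Prkaca and Mapkapk2, the most abundant, were at log2 fold changes of -0.03 ± 0.16 and 0.24 ± 0.18 (edgeR adjusted p = 0.927 and 0.436). Prkaca was at 0.04 without control replicate 1 and 0.05 without PE replicate 1. Mapkapk2 passed without control replicate 1 (0.47), in a fit that took the spread from the PE libraries alone.

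Of 21 tested heat shock factors and classical heat shock targets, 4 rose and 17 did not pass, with a median log2 fold change of 0.10. The called shares over all tested genes were 7.39% higher and 8.3% lower. Hspa2, a relative of the inducible heat shock chaperones best known from testis, was at 3.78 and 3.80 CPM in the controls and 9.80 and 13.3 CPM with PE (log2 fold change 1.61 ± 0.22, edgeR adjusted p = 0.00089). Hspa4l and Hsph1 encode large relatives that act as nucleotide exchange factors for such chaperones. Hspa4l was at 4.51 and 6.85 CPM in the controls and 13.5 and 11.7 CPM with PE, a log2 fold change of 1.15 ± 0.24 (edgeR adjusted p = 0.00822). Hsph1 was at 91.3 and 106 CPM in the controls and 202 and 179 CPM with PE, a log2 fold change of 0.95 ± 0.17 (edgeR adjusted p = 0.00356), and its call was lost when PE replicate 1 was left out (0.86, adjusted p = 0.106). Hspa8, described above, was the fourth. The PE libraries were above both controls for all 4, but these were named for being called higher. Of all tested genes 28.5% were higher without overlap. Hspa1a had 0 counts and Hsp90aa1 at most 6 in any library. Since Hsp90aa1 is active in nearly all cells, a count near 0 in this table need not mean a silent gene.

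**Figure D4:**
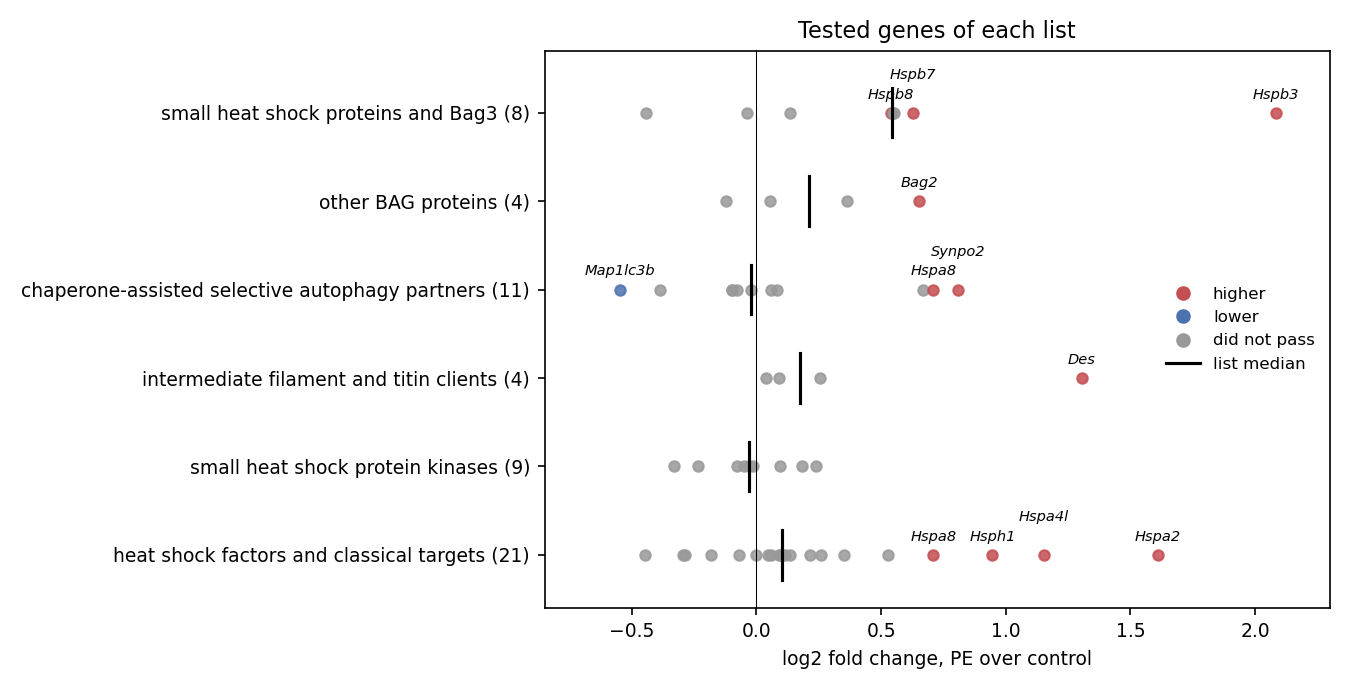
Log2 fold change of PE over control (x axis) for every tested gene of the 8 and of 5 related lists (rows, number of tested genes in brackets), with black bars for list medians. Red points passed as higher, blue as lower and grey did not pass. Hspb3 at 2.08 lies to the right of every gene of the other lists, of which Hspa2 is next at 1.61, and the kinases cluster around 0.

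By the Euclidean distance between centred log2 CPM over the 4 libraries, the tested genes most like Hspb3 were Cdkn2b, an inhibitor of cyclin-dependent kinases, at 0.04, Gadd45g, a growth arrest gene, at 0.07 and Mfsd4a, a gene of a transporter family, at 0.08. Cdkn2b was at 11.8 and 12.2 CPM in the controls and 54.4 and 48.6 CPM with PE. Gadd45g was at 16.7 and 19.1 CPM in the controls and 77.5 and 72.8 CPM with PE. Mfsd4a was at 1.36 and 1.38 CPM in the controls and 6.33 and 5.91 CPM with PE. With 4 libraries in 2 groups, this likeness mainly matches the size of the difference with PE.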

How the data were processed

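The authors deposited raw counts per gene for 4 libraries of total RNA depleted of ribosomal RNA, with a strand-specific kit, per the labels' protocols. Cutadapt 2.0, STAR 2.4.2a and featureCounts 1.6.4 and the build Rnor_6.0 are named in the submitters' processing notes. How they were set is not stated in those notes. The authors' deposited table of their own comparison holds log2 fold changes with standard errors, a test score (the statistic), p-values and adjusted p-values, and a mean normalized count (a signal value), per the file headers. All 20666 of its log2 fold changes matched DESeq2 1.42.0 on the deposited counts within 1e-06.

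Counts were tested as deposited with edgeR 4.0.16 (quasi-likelihood F test, R 4.3.3), TMM factors and edgeR's default filter (minimum count 10, minimum total 15), without a block, on 2 residual and 8.1 prior degrees of freedom. The common dispersion was 0.0245. An adjusted p under 0.05 counted as a change. CPM are counts over TMM-adjusted library size, with SD over n = 2. Groups came from the treatment label, since the protocol field mentions PE for all samples alike. Alternatives were DESeq2, other scaling, no filter, mitochondrial genes left out, a replicate block and leaving out each library. A crossed replicate block was added after seeing the data. The 8 genes and all lists were chosen with earlier results of these data known. Named genes were the 8 and up to 4 changed genes of each list with the largest differences (or the 2 most abundant where none changed). To these came the 3 genes most like the member that changed most, among the genes ranked as above. Ttn, Hspa1b, Prkg1 and Pecam1 were not analysed here.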

Additional observations from a re-analysis of the deposited data

How the results depend on the processing

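Hspb3 kept its direction and its call in all 11 alternatives, with log2 fold changes from 2.02 to 2.16. Hspb7 and Hspb8 kept their direction in all 11 and their call in 7 and 6. Hspb1, Cryab and Bag3 kept their direction in all 11 and were called in 5, 5 and 3. The 11 include a crossed replicate block chosen after seeing the data (below), in which Hspb3, Hspb7, Hspb8, Hspb1, Cryab and Bag3 were all called. So each of these counts of calls includes it. Of the 8 genes, 5 were higher with DESeq2 and with no filter, and 1 with library sizes alone. Changed genes among all tested in these settings were 2540 of 15858, 3189 of 20666 and 2499 of 15257. Leaving out 1 library gave 1 to 5 higher and 0 to 1 lower, and 1205 to 4755 changed genes among all tested. The count was 4708 with control replicate 1 left out, 4755 with control replicate 2 left out, and 1205 and 1267 with PE replicate 1 or 2 left out. In these fits the lone library is assumed to vary like the other group, and the cause of the shift was not tested. The log2 fold change of Hspb2 ranged from -0.16 to 0.082 when each library was left out in turn, the latter without PE replicate 1. That of Hspb6 ranged from -0.048, without PE replicate 2, to 0.31.

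The labels give both groups replicate numbers but do not say what a number marks. Deviations of same-numbered libraries had a correlation of -0.229 across 15257 genes, so the numbers were not taken as pairs. With a replicate block, 1964 genes changed against 2393, and 1 of the 8 was higher, Hspb3. Hspb7 was then at 0.63 (adjusted p = 0.0918) and Hspb8 at 0.54 (adjusted p = 0.201), and Bag2, Hspa8 and Map1lc3b were not called (adjusted p = 0.104, 0.0519 and 0.2). With the crossed pairing, a replicate block chosen after seeing the data, 4677 of 15257 tested genes changed. Of the 8, 5 were then higher and 1 lower. The lowest count of any of the 8 genes in a library was 858, and fits at other depths or group sizes above 2 were not run.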
